A study of Danio rerio with 6 samples.

Results

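The genes that break down amino acids, feed one-carbon units into the folate and methionine cycles and make urea were measured in hepatocytes of zebrafish larvae with and without extra lcat. The members are a list of gene names drawn up with earlier results of these data known; the list itself uses no measured value. Of 58 gene symbols in the list, 57 were found among the 23745 genes of the deposited table, and sds was not matched. They fall into transamination and glutamate metabolism (12 genes), aromatic amino acid breakdown (10), the urea cycle with arginine, ornithine and proline (9), glycine and methionine metabolism (15), branched-chain amino acid breakdown (8) and histidine breakdown (3).

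Hepatocytes were sorted by fluorescence from larvae 6 days after fertilisation, 2000 cells per sample. The group CTL (3 samples) carried the transgene fabp10a:eGFP, in which the promoter of a liver fatty acid binding protein drives a green reporter. The group lcat OE (3 samples) carried the same green reporter and, in addition, fabp10a:lcat-T2A-mCherry, which makes the cholesterol-esterifying enzyme Lcat together with a red reporter in the same cells. No group carried the red reporter alone, so an effect of lcat and an effect of the second transgene cannot be told apart. The series set out to follow transcripts in early fatty liver under lcat overexpression. Whether the replicates of a group are separate clutches, larval pools or sorts is not stated, and p-values measure only the spread between these samples.

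Liver removes the amino group of most amino acids by transferring it to 2-oxoglutarate, which gives glutamate, and glutamate dehydrogenase then frees the nitrogen as ammonia. Mammals turn that ammonia into urea in the liver, whereas most bony fish release ammonia across the gills and use arginase mainly to break down arginine. Carbon skeletons of the aromatic and branched-chain amino acids are burnt in dedicated pathways, several of them in mitochondria. The glycine cleavage system and the demethylation of sarcosine and dimethylglycine load one-carbon units onto folate, and the methionine cycle uses methyl groups from betaine or folate to rebuild methionine from homocysteine, which can also leave the cycle through transsulfuration to cysteine.

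Expected counts per library totalled 23336591 to 24890856, and the 20 most abundant genes held 41.5% to 45.2% of them. lcat rose from 103, 90.1 and 105 TPM (a transcript level scaled by transcript length and library) in CTL 1 to 3 to 2247, 1723 and 1118 TPM in lcat OE 1 to 3, a log2 fold change of 4.24. The 20 hepatocyte marker genes summed to 35.8% of TPM in CTL and 39.5% in lcat OE. A single gene, apoa2, gave 56.1% of this sum in CTL and 60.1% in lcat OE. On counts 2 of the 20 were called higher, 1 was called lower and 17 were not called, against 16.3% of all genes called in each direction. With limma on log2(TPM + 1), 2 were called higher and 6 lower, against 9.53% and 21.5% of all genes. Markers of several other cell types moved with the group. The calls given for them are on counts, where 16.3% of all genes were called in each direction. The 19 epidermal genes summed to 632 to 1268 TPM in CTL and 6242 to 10983 TPM in lcat OE, with 14 called higher and 2 lower. The 21 exocrine pancreas genes summed to 1047 to 2596 TPM in CTL and 59.4 to 329 TPM in lcat OE, with 9 called lower and 1 higher. The 19 skeletal muscle genes summed to 45.5, 54.2 and 299 TPM in CTL 1 to 3 and 15.9 to 18.9 TPM in lcat OE, with 14 tested and 6 called lower. The 9 xanthophore genes summed to 142 to 303 TPM and 53.2 to 63.9 TPM, with 6 called lower. The 14 photoreceptor and neuron genes summed to 27.2 to 43.8 TPM and 3.32 to 4.56 TPM, with 12 tested and 9 called lower. The 17 macrophage genes summed to 27.9 to 36.3 TPM and 35.7 to 41.6 TPM, with 9 tested, 5 called higher and 1 lower. Of the erythroid, intestine and kidney tubule genes, 0 of 5, 2 of 6 and 1 of 6 tested were called, the intestinal ones higher and the kidney one lower. The genes at 0 counts throughout a group were aox5 of the xanthophore list in lcat OE and, in CTL, c1qb (macrophage), gata1a (erythroid) and slc12a1 (kidney tubule). The part of these cell types in the results given here was not tested. In bulk RNA, fewer cells of a type and less RNA per cell cannot be told apart.

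The 57 genes together made up 25337 ± 422 TPM in CTL (mean ± SD, n = 3) and 19373 ± 1870 TPM in lcat OE (n = 3), or 2.53% and 1.94% of all transcripts. The sums were 25571, 24850 and 25589 TPM in CTL and 18572, 18037 and 21510 TPM in lcat OE, so the groups did not overlap. Such a sum mostly reflects its most abundant genes. Mean TPM went from 6731 to 4172 for agxtb, 5631 to 4621 for bhmt and 1928 to 922 for tat. hpda went the other way, from 1547 to 1847 TPM. None of these genes was called on counts. A few enzymes carried most of this RNA. agxtb, an alanine-glyoxylate aminotransferase, supplied 26.6% of the summed level in CTL, and bhmt, betaine-homocysteine methyltransferase, was next. The 7 most abundant members in CTL were agxtb, bhmt, tat, ahcy, hpda, glud1b and agxta, from 6731 TPM down to 1006 TPM. At the other end, the urea cycle genes cps1, otc, asl and arg1 stayed under 1 TPM in both group means.

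**Figure D1:**
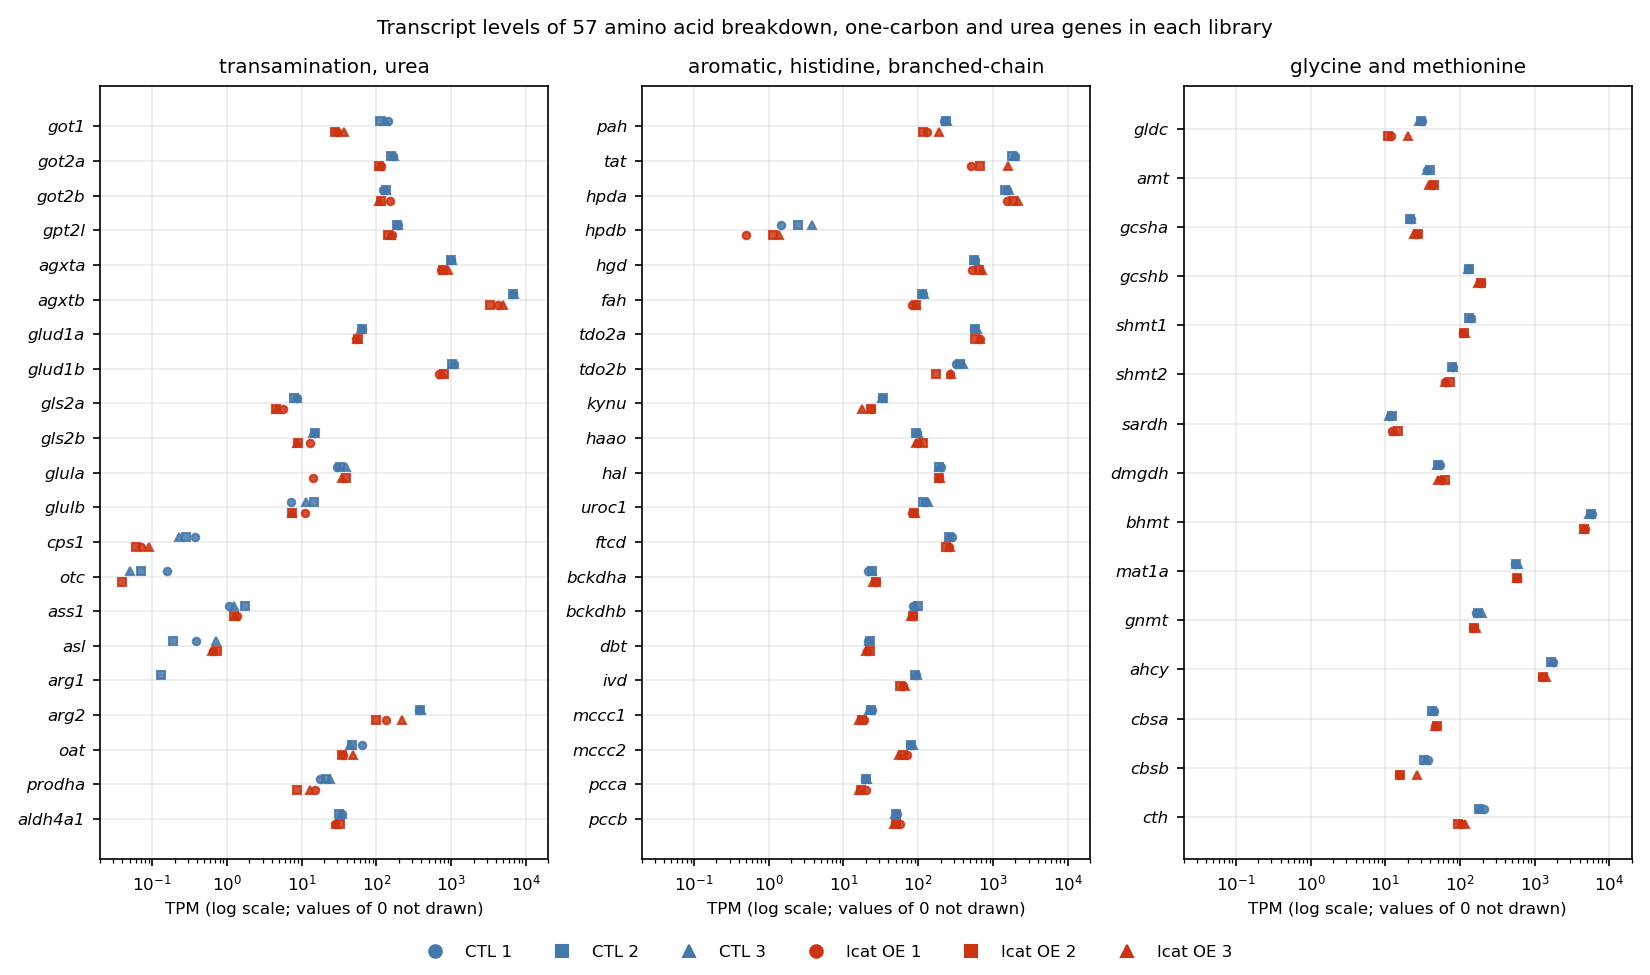
TPM of the members in each library on a log axis, grouped by pathway; each point is 1 of the 3 CTL or 3 lcat OE libraries. agxtb and bhmt lie at the top with CTL means of 6731 and 5631 TPM, and the urea cycle genes cps1, otc, asl and arg1 lie under 1 TPM; libraries at 0 are not drawn.

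Of the members, 55 had enough counts to be tested; otc and arg1 did not pass the filter on low counts. In the comparison of lcat OE with CTL across all 14096 genes tested (edgeR quasi-likelihood test on counts scaled by TMM, a normalisation that sets the typical gene to no change), 6 members rose and 7 fell at an adjusted p under 0.05. That is 10.9% and 12.7% of the members tested, against 16.3% of all genes called higher and 16.3% called lower (the difference between these shares was not tested). Their median log2 fold change was -0.09, against -0.02 over all genes. The 6 that rose were gcshb, gcsha, amt, sardh, dmgdh and bckdha. The 7 that fell were got1, got2a, gls2a, kynu, cps1, cth and ivd.

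The counts of calls depended on the scale. On log2(TPM + 1) with limma, 1 member was called higher and 26 lower, that is 1.82% and 47.3% of those tested, against 9.53% and 21.5% of all genes. All genes are not matched to the members in abundance: 53 members reached 1 TPM in a group mean, against 8479 of all genes. The part of abundance in the difference between these shares was not tested. On this scale the members' median was -0.28 and that of all genes -0.09. On log2(TPM + 0.1) these medians were -0.31 and -0.18, so the gap between them depended on the added constant. With counts scaled by library totals only, 3 members were called higher and 18 lower, against 11.9% and 18.7% of all genes. In TPM, lcat OE lay wholly below CTL for 29 of the 55 tested members and wholly above for 5, against 33.1% and 14.0% of all genes tested. In CPM scaled by TMM these counts were 15 below and 12 above, against 24.1% and 23.6%. The 6 members called under every alternative normalisation, test and left-out library were got1, gls2a, kynu, cps1, cth and gcshb. The other 7 calls each depended on at least 1 library. How many of all called genes held in this way was not counted. The 6 higher calls became 3, 1 and 2 without CTL 1, CTL 2 and CTL 3, and 9, 4 and 5 without lcat OE 1, lcat OE 2 and lcat OE 3, while the 7 lower calls became 5 or 6 without any library other than lcat OE 3. Over all genes, 12.1% to 13.6% were called higher and 11.9% to 13.6% lower without one of those 5 libraries, so the table as a whole also gave smaller shares than with all 6.

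**Figure D2:**
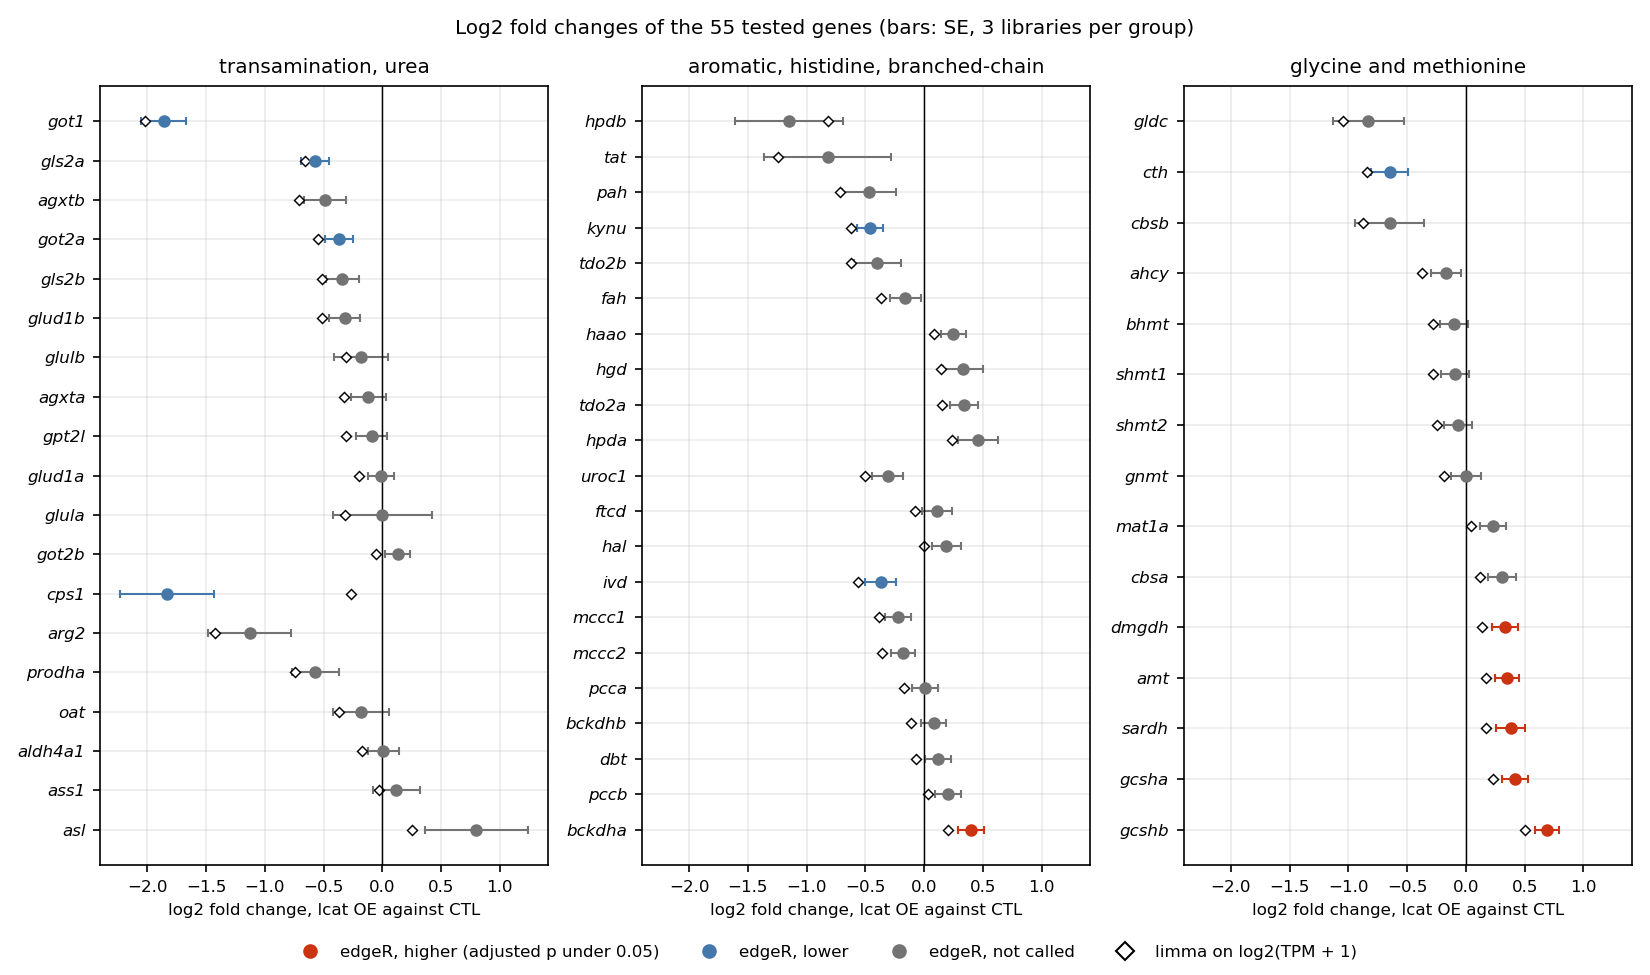
Log2 fold change of lcat OE against CTL for the 55 tested members, from edgeR on TMM-scaled counts with bars of 1 standard error, and from limma on log2(TPM + 1). got1 and cps1 lie lowest at -1.86 and -1.83, and all members but cps1 and hpdb sit lower on the TPM scale than on the TMM scale.

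Among the transaminases and the enzymes of glutamate, got1 showed the widest change and 2 others fell; these 3 of 12 are set against 16.3% of all genes called lower. got1, the cytosolic aspartate aminotransferase, was at 145, 113 and 132 TPM in CTL and at 29.3, 27.9 and 36.9 TPM in lcat OE. The lcat OE libraries lay far below every CTL library, a 3.62-fold fall (log2 fold change -1.86, SE 0.19, edgeR adjusted p = 0.000161). Its estimated counts were not whole numbers in any of the 6 libraries, that is, some of its reads were divided between it and another feature. got2a, a mitochondrial aspartate aminotransferase, was at 167, 157 and 169 TPM in CTL and 117, 107 and 111 TPM in lcat OE, without overlap. Its log2 fold change was -0.37 (SE 0.12, edgeR adjusted p = 0.0316). This call was lost without CTL 1 (edgeR adjusted p = 0.117), CTL 3 (0.102), lcat OE 1 (0.0955) or lcat OE 2 (0.101). gls2a, a glutaminase that releases ammonia from glutamine, was a weakly expressed gene at 8.67, 7.92 and 8.60 TPM in CTL and 5.63, 4.59 and 4.65 TPM in lcat OE. It fell by 0.57 on the log2 scale (SE 0.12, edgeR adjusted p = 0.00457).

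The most abundant enzymes of the group missed the threshold on TMM-scaled counts. agxtb, which moves an amino group from alanine to glyoxylate, was at 6687, 6632 and 6875 TPM in CTL and 4271, 3334 and 4912 TPM in lcat OE. Every lcat OE library was below every CTL library in TPM, with a log2 fold change of -0.49 (SE 0.18, edgeR adjusted p = 0.0559) on counts and -0.71 (limma adjusted p = 0.00574) on log2(TPM + 1). glud1b, a glutamate dehydrogenase, was at 1095, 1020 and 1081 TPM and then 688, 796 and 762 TPM, with -0.32 (edgeR adjusted p = 0.088) and -0.51 (limma adjusted p = 0.00124) on these scales. agxta stood at 1006 ± 23.2 TPM in CTL and 805 ± 85.9 TPM in lcat OE (SD, n = 3 each), and gpt2l, an alanine aminotransferase listed as gpt in RefSeq, at 191 ± 3.51 and 154 ± 9.91 TPM. Both passed the threshold on log2(TPM + 1) (limma adjusted p = 0.0163 and 0.0225, log2 -0.33 and -0.31). got2b, the other mitochondrial aspartate aminotransferase, had overlapping groups at 130 ± 7.10 and 126 ± 22.6 TPM, and its fitted change was 0.13 on counts and -0.05 on log2(TPM + 1), neither called. glud1a and the glutamine synthetases glula and glulb were not called on either scale, with log2 fold changes of -0.01, -0.00 and -0.18 on counts. gls2b, the other glutaminase, had -0.34 on counts (edgeR adjusted p = 0.0791) and passed on log2(TPM + 1) (-0.51, limma adjusted p = 0.0411). Summed over the 12 genes, the level was 9549 ± 190 TPM in CTL and 6259 ± 841 TPM in lcat OE, most of it agxtb (70.5% and 66.7%). Of 11 further genes of this pathway that were tested, 1 rose and 2 fell, against 16.3% of all genes in each direction. aspa, which splits N-acetylaspartate, fell by 1.26 on the log2 scale (SE 0.23, edgeR adjusted p = 0.00198), from 7.35, 5.93 and 5.54 TPM to 2.68, 1.70 and 2.55 TPM. asns, asparagine synthetase, rose by 0.58 (edgeR adjusted p = 0.021), a call lost on log2(TPM + 1) and without CTL 3, lcat OE 1 or lcat OE 2.

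For the aromatic amino acids, 1 of 10 members was called, kynureninase, which fell, against 16.3% of all genes called lower. A group of abundant enzymes had lcat OE libraries that disagreed with each other. kynu, which cuts kynurenine and hydroxykynurenine on the tryptophan pathway, was at 33.0, 33.9 and 33.2 TPM in CTL and 23.2, 23.5 and 17.7 TPM in lcat OE. The groups stood apart, with a log2 fold change of -0.46 (SE 0.11, edgeR adjusted p = 0.00784); its counts were fractional in all 6 libraries. Upstream, the tryptophan dioxygenases had fitted changes of opposite sign, neither called on counts. tdo2a was at 552, 570 and 607 TPM and then 668, 584 and 667 TPM (log2 0.34, edgeR adjusted p = 0.0582). tdo2b was at 321, 367 and 394 TPM and then 264, 174 and 277 TPM (log2 -0.40, edgeR adjusted p = 0.159), and passed as lower on log2(TPM + 1) (-0.62, limma adjusted p = 0.028). haao, the next dioxygenase after kynureninase, was at 97.0 ± 2.29 and 103 ± 11.3 TPM (SD, n = 3 each) and was not called.

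On the phenylalanine and tyrosine branch, pah, which hydroxylates phenylalanine, was at 224, 234 and 243 TPM in CTL and 131, 115 and 190 TPM in lcat OE. tat, tyrosine aminotransferase and the first step of tyrosine breakdown, was at 2003, 1805 and 1977 TPM in CTL and 510, 672 and 1584 TPM in lcat OE. In both genes lcat OE 3 lay nearest to CTL, and neither was called on counts (log2 -0.47 and -0.82, edgeR adjusted p = 0.164 and 0.314); on log2(TPM + 1) pah passed (-0.72, limma adjusted p = 0.0131). Further down, hpda, hydroxyphenylpyruvate dioxygenase, was at 1542, 1469 and 1629 TPM and then 1547, 1855 and 2140 TPM (log2 0.46, edgeR adjusted p = 0.0663). hgd, homogentisate dioxygenase, was at 565 ± 11.8 and 626 ± 95.6 TPM and fah, the last enzyme of the branch, at 116 ± 4.49 and 90.1 ± 7.01 TPM (SD, n = 3 each). fah passed on log2(TPM + 1) (log2 -0.37, limma adjusted p = 0.0198). hpdb was a minor copy at 1.48, 2.45 and 3.83 TPM and then 0.49, 1.13 and 1.37 TPM (log2 -1.15, edgeR adjusted p = 0.0949; on log2(TPM + 1) -0.82, limma adjusted p = 0.0441). Of 12 further aromatic genes tested, 2 rose and 3 fell, against 16.3% of all genes called in each direction. afmid, which makes kynurenine from formylkynurenine, rose from 22.3, 24.4 and 25.1 TPM to 36.2, 37.8 and 31.1 TPM (log2 0.72, SE 0.10, edgeR adjusted p = 0.000626). Of the cofactor genes, pcbd1 rose (log2 0.56, edgeR adjusted p = 0.00921) and qdpra, which regenerates tetrahydrobiopterin, fell (log2 -0.72, edgeR adjusted p = 0.00175). ddc, the aromatic amino acid decarboxylase, fell by 0.52 (edgeR adjusted p = 0.00882), and ido1, a further tryptophan dioxygenase, fell by 0.73 (edgeR adjusted p = 0.0203). The ido1 call was lost without CTL 1, CTL 3, lcat OE 1 or lcat OE 2.

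The urea cycle proper was barely transcribed. cps1, carbamoyl phosphate synthetase, gave 43, 31 and 26 counts in CTL and 8, 8 and 11 counts in lcat OE, that is 0.38, 0.28 and 0.23 TPM against 0.07, 0.06 and 0.09 TPM. It fell by 1.83 on the log2 scale (SE 0.40, edgeR adjusted p = 0.00602); the 100 counts in CTL have an exact 95% Poisson interval of 81.4 to 122 and the 27 in lcat OE one of 17.8 to 39.3. otc, ornithine carbamoyltransferase, gave 12 counts in CTL and 2 in lcat OE. arg1 gave 3 counts in CTL and 0 in lcat OE, and no fold was formed. ass1 and asl, which make and split argininosuccinate, gave 310 and 327, and 56 and 95 counts over the group, and neither was called (log2 0.12 and 0.80, edgeR adjusted p = 0.674 and 0.195). Intervals of these sums cover counting error only, since PCR copies were not marked.

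arg2, the mitochondrial arginase, was the abundant gene of this group, at 376, 379 and 395 TPM in CTL and 134, 98.8 and 217 TPM in lcat OE. The groups did not overlap, yet lcat OE 3 lay well above the other 2 lcat OE libraries, and the test missed the threshold (log2 -1.13, SE 0.35, edgeR adjusted p = 0.0516). Without lcat OE 3 the log2 fold change was -1.60 (edgeR adjusted p = 3.16e-05), and on log2(TPM + 1) with all libraries it was -1.42 (limma adjusted p = 0.00774). oat, which converts ornithine towards proline and glutamate, had overlapping groups at 64.9, 47.5 and 44.5 TPM and 36.3, 34.9 and 49.2 TPM. prodha, proline dehydrogenase, was at 17.5, 21.5 and 23.9 TPM and then 15.1, 8.72 and 13.1 TPM (log2 -0.57, edgeR adjusted p = 0.0629; on log2(TPM + 1) -0.74, limma adjusted p = 0.0219). aldh4a1, the next enzyme of proline breakdown, had a log2 fold change of 0.01. Of 12 further arginine, ornithine and proline genes tested, 6 rose and 0 fell on counts, against 16.3% of all genes in each direction; on log2(TPM + 1) 4 rose and 1 fell, against 9.53% and 21.5%. Whether this list differs from other genes was not tested. gatm, which makes guanidinoacetate for creatine from arginine and glycine, was at 1794, 2068 and 1702 TPM in CTL and 3066, 2521 and 2364 TPM in lcat OE, without overlap. It rose by 0.69 on the log2 scale (SE 0.11, edgeR adjusted p = 0.00127). nos1, a nitric oxide synthase, rose from 0.38, 0.55 and 0.33 TPM to 0.94, 1.33 and 1.18 TPM (log2 1.70, edgeR adjusted p = 0.00052), and aldh18a1, which starts proline synthesis, rose by 0.79 (edgeR adjusted p = 0.00152). nos1, gatm and aldh18a1 were called under every alternative normalisation, test and left-out library.

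In glycine and one-carbon metabolism, the carrier and transfer subunits of the glycine cleavage system rose, while gldc, with lower levels in lcat OE, was not called. The lipoyl carrier protein, gcshb, was at 127, 133 and 128 TPM in CTL and 191, 189 and 172 TPM in lcat OE, above CTL in all 3 libraries (log2 0.69, SE 0.10, edgeR adjusted p = 0.000685). Its rise was the single member call in the higher direction that also stood on log2(TPM + 1), where it was 0.50 (limma adjusted p = 0.00263). gcsha, the other carrier copy, went from 21.8, 21.7 and 21.9 TPM to 26.0, 27.1 and 24.3 TPM (log2 0.42, SE 0.11, edgeR adjusted p = 0.0132). The aminomethyltransferase amt had overlapping groups in TPM, at 35.7, 40.0 and 36.1 and then 42.6, 45.3 and 38.4, with a log2 fold change of 0.35 (SE 0.10, edgeR adjusted p = 0.0249) on counts. gldc, the glycine decarboxylase that starts the reaction, was instead at 30.7, 30.1 and 28.4 TPM in CTL and 12.1, 10.8 and 20.2 TPM in lcat OE. Its groups stood apart in the lower direction, with a log2 fold change of -0.83 that missed the threshold (SE 0.30, edgeR adjusted p = 0.0802) but reached it without lcat OE 3 (-1.25, edgeR adjusted p = 7.03e-05) and on log2(TPM + 1) (-1.05, limma adjusted p = 0.00587).

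sardh and dmgdh, which demethylate sarcosine and dimethylglycine, rose by 0.38 (SE 0.12, edgeR adjusted p = 0.0352) and 0.33 (SE 0.11, edgeR adjusted p = 0.0483). Their levels were 11.7, 12.4 and 11.3 TPM against 12.5, 14.7 and 13.2 TPM for sardh, and 54.2, 51.4 and 48.7 TPM against 56.0, 62.8 and 51.5 TPM for dmgdh, so the dmgdh groups overlapped. On log2(TPM + 1) gcsha, amt, sardh and dmgdh were not called. Each of these calls was also lost when single libraries were left out: gcsha without CTL 2 or CTL 3 (edgeR adjusted p up to 0.0637), amt without CTL 1, 2 or 3 or lcat OE 2 (up to 0.104), sardh without any one library other than lcat OE 1 (up to 0.128), and dmgdh without CTL 2, CTL 3 or lcat OE 2 (up to 0.177). shmt1 and shmt2, which move a one-carbon unit from serine to folate, had log2 fold changes of -0.09 and -0.07 and were not called on counts; shmt1 stood at 138 ± 3.34 and 113 ± 2.24 TPM (SD, n = 3 each) and passed on log2(TPM + 1) (-0.28, limma adjusted p = 0.0288).

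In the methionine cycle the abundant enzymes were not called on counts, and the transsulfuration enzyme cth fell. bhmt was at 5846, 5653 and 5393 TPM in CTL and 4704, 4564 and 4594 TPM in lcat OE, without overlap in TPM. Its log2 fold change was -0.10 (edgeR adjusted p = 0.55) on counts and -0.28 (limma adjusted p = 0.00234) on log2(TPM + 1). ahcy, which splits S-adenosylhomocysteine, was at 1761, 1643 and 1723 TPM and then 1253, 1308 and 1412 TPM, with -0.17 (edgeR adjusted p = 0.353) and -0.37 (limma adjusted p = 0.00307). mat1a, the liver methionine adenosyltransferase, was at 566 ± 28.9 and 582 ± 2.18 TPM and gnmt, glycine methyltransferase, at 178 ± 16.5 and 156 ± 8.58 TPM (SD, n = 3 each), and neither was called on either scale. cth, cystathionine gamma-lyase, which releases cysteine, was at 207, 177 and 184 TPM in CTL and 103, 95.4 and 118 TPM in lcat OE. The lcat OE libraries were all below CTL (log2 -0.65, SE 0.16, edgeR adjusted p = 0.00931), with fractional counts in all 6 libraries. Of the cystathionine synthases before it, cbsa was at 44.7, 42.5 and 43.2 TPM and then 45.8, 49.3 and 46.8 TPM, and cbsb at 37.0, 33.5 and 34.9 TPM and then 15.4, 15.8 and 26.6 TPM. Neither passed on counts (log2 0.31 and -0.65, edgeR adjusted p = 0.0643 and 0.132), and cbsb passed on log2(TPM + 1) (-0.88, limma adjusted p = 0.0102).

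Of 47 further genes of glycine, serine, folate, methionine and sulfur amino acid metabolism tested, 11 rose and 3 fell on counts, against 16.3% of all genes in each direction, and 6 rose and 7 fell on log2(TPM + 1), against 9.53% and 21.5%. The methionine adenosyltransferase copies mat2aa and mat2ab moved in opposite directions. mat2aa rose from 31.3, 33.9 and 29.1 TPM to 49.0, 43.2 and 37.7 TPM (log2 0.64, SE 0.11, edgeR adjusted p = 0.00127). mat2ab fell from 31.9, 35.4 and 32.6 TPM to 21.1, 15.9 and 18.7 TPM (log2 -0.65, SE 0.13, edgeR adjusted p = 0.00353). mthfd1a, a folate enzyme that interconverts one-carbon units, rose from 2.86, 2.85 and 2.5 TPM to 6.02, 4.58 and 4.68 TPM (log2 1.08, SE 0.13, edgeR adjusted p = 0.000211). apip, of methionine salvage, rose by 0.81 (edgeR adjusted p = 0.00172). ahcyl2, a relative of ahcy, fell by 0.50 (edgeR adjusted p = 0.00728). phgdh, which opens serine synthesis, fell by 1.03 (edgeR adjusted p = 0.0107), a call lost without CTL 3 (0.05).

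In branched-chain breakdown, 1 of 8 members rose and 1 fell, near the 16.3% of all genes called in each direction, and 6 were not called. bckdha, the catalytic alpha subunit of the dehydrogenase complex that commits branched-chain keto acids to oxidation, was at 21.1, 23.8 and 24.0 TPM in CTL and 27.2, 27.5 and 25 TPM in lcat OE. It rose by 0.40 (SE 0.11, edgeR adjusted p = 0.0146), and the call was lost on log2(TPM + 1) and without CTL 1 (0.0538) or CTL 2 (0.0596). ivd, isovaleryl-CoA dehydrogenase of the leucine branch, was at 92.2, 90.2 and 95.4 TPM and then 63.0, 57.9 and 66.7 TPM. The groups stood well apart in TPM, and on counts it fell by 0.37 (SE 0.13, edgeR adjusted p = 0.0485), a call lost without any one library other than lcat OE 3 (edgeR adjusted p of 0.078 to 0.152). The other dehydrogenase subunits bckdhb and dbt had log2 fold changes of 0.08 and 0.12. mccc1 and mccc2, the methylcrotonyl-CoA carboxylase subunits after ivd, had -0.22 and -0.18, and pcca and pccb, the propionyl-CoA carboxylase subunits, 0.01 and 0.20. On log2(TPM + 1) mccc1 and mccc2 passed as lower (-0.38 and -0.36, limma adjusted p = 0.0278 and 0.0411), with lcat OE below CTL in TPM in every library.

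Of 22 further branched-chain genes tested, 8 rose and 5 fell on counts, against 16.3% of all genes in each direction, and 1 rose and 6 fell on log2(TPM + 1), against 9.53% and 21.5%. acad8, the isobutyryl-CoA dehydrogenase of the valine branch, fell from 14.7, 13.7 and 14.7 TPM to 8.02, 6.62 and 5.50 TPM (log2 -0.93, SE 0.12, edgeR adjusted p = 0.000357). ppm1k, the phosphatase that switches the dehydrogenase complex on, fell from 12.8, 11.8 and 13.3 TPM to 5.30, 5.24 and 6.45 TPM (log2 -0.90, SE 0.15, edgeR adjusted p = 0.00154). bckdk, the kinase that switches the complex off, was looked up after its value was seen and had a log2 fold change of -0.87 (SE 0.22, edgeR adjusted p = 0.016), lost without CTL 2 (0.0521), lcat OE 1 (0.0541) or lcat OE 3 (0.0622). bcat1, a branched-chain aminotransferase, fell by 0.71 (edgeR adjusted p = 0.00729). hibadha and hibadhb, which oxidise hydroxyisobutyrate from valine, rose by 0.78 and 0.59 (edgeR adjusted p = 0.00181 and 0.00189), the second not called on log2(TPM + 1).

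None of the 3 histidine genes was called on counts, where 16.3% of all genes were called in each direction. hal, histidine ammonia-lyase, was at 192 ± 6.35 and 193 ± 2.42 TPM and ftcd, the folate-linked last enzyme, at 266 ± 14.1 and 252 ± 16.0 TPM (SD, n = 3 each), neither called on either scale. uroc1, urocanate hydratase between them, was at 123, 116 and 134 TPM in CTL and 83.6, 87.6 and 91.3 TPM in lcat OE, below CTL in all 3 libraries. It passed on log2(TPM + 1) (-0.50, limma adjusted p = 0.00497) and not on counts (-0.31, edgeR adjusted p = 0.0955). The further gene si:ch73-71d17.1, named amdhd1 in RefSeq and the enzyme after uroc1, rose from 59.0, 57.6 and 61.3 TPM to 76.8, 86.8 and 69.7 TPM (log2 0.57, edgeR adjusted p = 0.00305). Lysine breakdown holds no member. Of 8 of its genes tested, 2 rose (pipox, log2 1.3, and gcdhb, 0.39; edgeR adjusted p = 0.00483 and 0.031) and aass fell (-0.58, edgeR adjusted p = 0.0256), against 16.3% of all genes in each direction. The gcdhb call was lost without CTL 2, CTL 3 or lcat OE 1, and on log2(TPM + 1), and the aass call without CTL 1, lcat OE 1 or lcat OE 2. Of the lysine genes, pipox, aadat and aldh7a1 also stand in other lists above. pipox is among the 11 further glycine and methionine genes that rose.

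**Figure D3:**
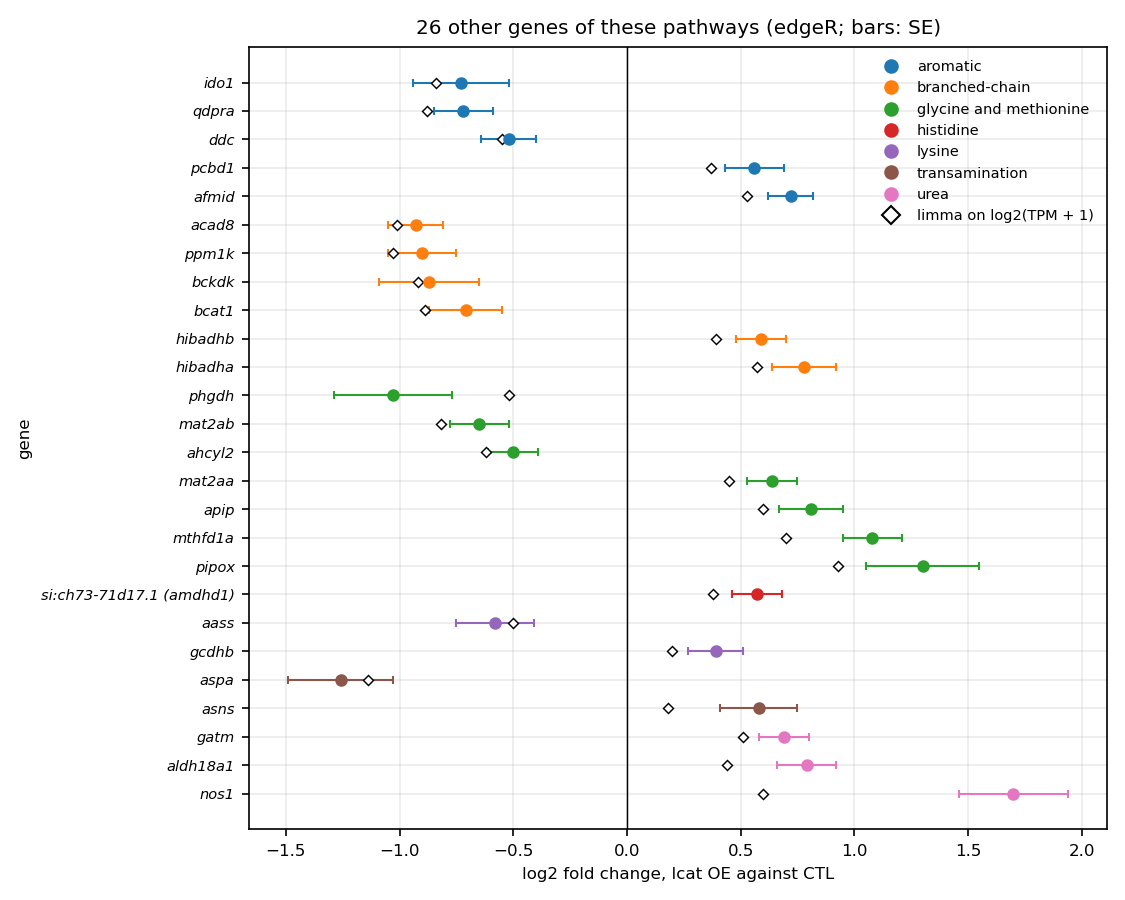
Log2 fold changes of lcat OE against CTL for the further genes of the same pathways described in the text, coloured by pathway: filled points from edgeR on TMM-scaled counts with bars of 1 standard error, open diamonds from limma on log2(TPM + 1). nos1 lies highest at 1.70 and aspa lowest at -1.26 among the filled points; mat2aa and mat2ab lie on opposite sides of 0.

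Across the further genes of these pathways, 30 of 112 tested rose and 14 fell, that is 26.8% and 12.5% against 16.3% of all genes in each direction. Genes that stand in several lists were not counted again in these totals. On log2(TPM + 1) it was 14 and 20, or 12.5% and 17.9%, against 9.53% and 21.5%. Of the 44 calls on counts, 20 held under every alternative normalisation, test and left-out library. The matching share over all called genes was not counted, so this number has no reference beside it.

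For paralogs the share of each copy in the pair's summed TPM was compared within libraries, which leaves library scaling out. With 3 libraries against 3 an exact two-sided permutation test cannot go below 0.1, so none of the 11 pairs could pass the threshold (adjusted p = 0.16 where the groups did not overlap). got2b gave 42.2%, 45.9% and 44.4% of the got2 pair in CTL and 56.6%, 52.2% and 49.7% in lcat OE. tdo2b gave 36.8%, 39.2% and 39.3% of its pair in CTL and 28.4%, 23% and 29.3% in lcat OE. cbsb gave 45.3%, 44.1% and 44.7% of its pair in CTL and 25.1%, 24.3% and 36.3% in lcat OE, again nearest to CTL in lcat OE 3. The leading copy stayed leading for agxtb (87.0% and 83.6%), glud1b (94.3% and 93.1%) and gcshb (85.6% and 87.7%). The shares in these pairs did not overlap between the groups either, nor did the share of hpdb (0.166% and 0.0522% of its pair). By contrast, gls2b, glulb and shmt2 had overlapping shares. How often shares stand apart over all paralog pairs of the genome was not counted. For TPM itself, lcat OE lay wholly below CTL in 33.1% of all genes tested and wholly above in 14.0%. Paralogs of similar sequence can share reads, so such shares carry the error of the authors' read assignment.

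**Figure D4:**
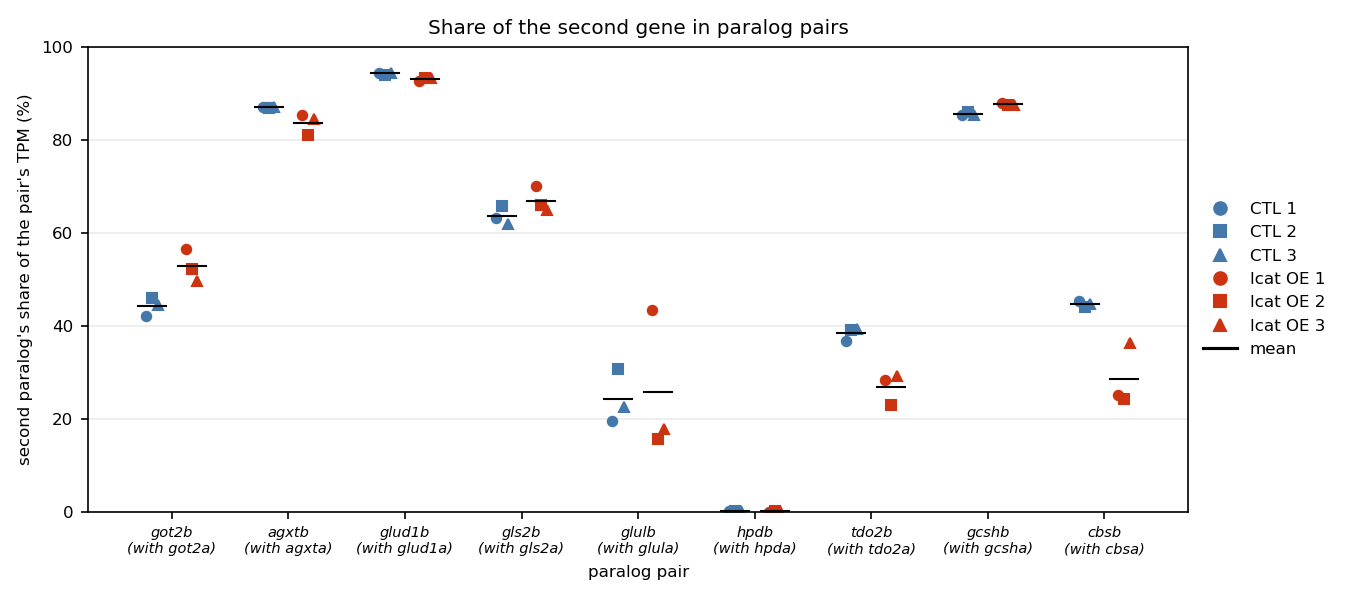
Percent of the summed TPM of a paralog pair that came from the copy named on the axis, per library, for CTL and lcat OE. The pairs arg1 with arg2 and shmt1 with shmt2 are not drawn. tdo2b and cbsb lie lower in lcat OE and got2b lies higher, without overlap between the groups. The shares of agxtb, glud1b, hpdb and gcshb do not overlap either. How often shares stand apart over all paralog pairs was not counted.

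Several calls differed with and without the library lcat OE 3. Of 53 members at 1 TPM or more in a group mean, 6 had a TPM in lcat OE 3 over 1.5 times the mean of lcat OE 1 and lcat OE 2 (11.3%, against 2.28% of 8479 genes at that level), and none was below the inverse of that ratio (14.1% of genes were). The 6, picked after their values were seen, were tat, arg2, gldc, cbsb, pah and hpdb. The difference between the shares of members and of all genes was not tested. Over all 55 tested members, lcat OE 3 was the lcat OE library nearest to CTL in TPM for 26 (47.3%), against 35.5% of all genes. Without lcat OE 3, 18 members fell and 5 rose, against 15.2% and 16.5% of all genes. tat then had a log2 fold change of -1.58 (edgeR adjusted p = 0.000363), pah of -0.80 (0.000277) and cbsb of -1.05 (0.000233), all past the threshold. hpdb had -1.53 (0.0545) and missed it. These genes were picked for a high level in lcat OE 3. A wider fall without it, here and for arg2 and gldc, follows from the pick and is no separate result. agxtb (-0.70), tdo2b (-0.59), uroc1 (-0.41), glud1b (-0.39), ahcy (-0.29) and agxta (-0.28) also passed as lower without this library, with edgeR adjusted p from 0.000719 for agxtb to 0.0299 for ahcy. Leaving out other libraries brought in single genes: hpda (0.63, edgeR adjusted p = 0.01), hgd, cbsa and gls2b passed without lcat OE 1, tdo2a (0.43, edgeR adjusted p = 0.0353) without lcat OE 2 and hpdb (-1.41, edgeR adjusted p = 0.046) without CTL 1. lcat itself was lowest in lcat OE 3 among the lcat OE libraries (1118 TPM), as was the epidermal marker sum (6242 TPM), and the TMM factor of that library was 0.869 against 0.998 to 1.06 for the others. The part of these in the difference was not tested. Without lcat OE 3 the comparison rests on 2 lcat OE libraries.

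**Figure D5:**
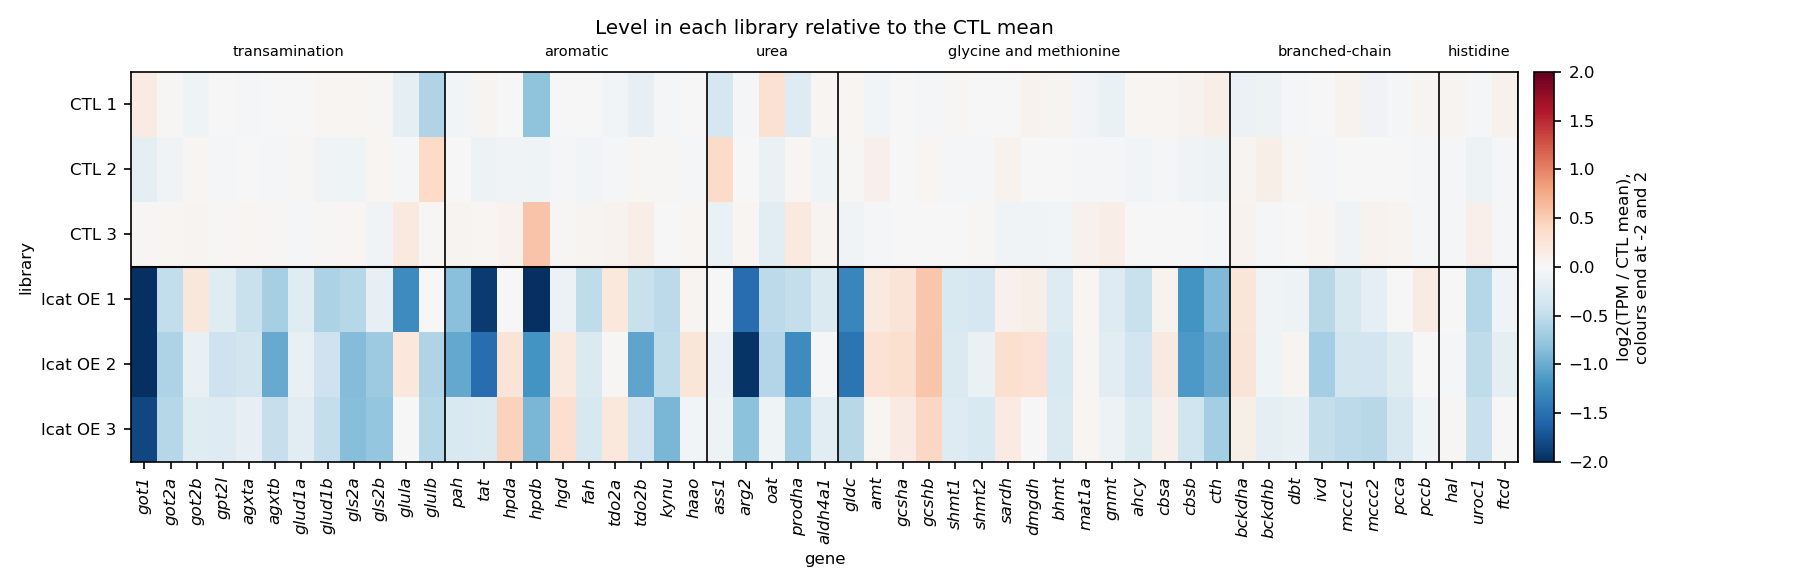
Heat map of the log2 ratio of TPM to the CTL mean, with the 6 libraries as rows and the 53 members with at least 1 TPM in a group mean as columns, grouped by pathway; blue is below and red above the CTL mean. In tat, arg2, gldc, cbsb, pah and hpdb the lcat OE 3 row is paler than the lcat OE 1 and lcat OE 2 rows.

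Reads may be shared between neighbouring or overlapping genes, since the labels name no strand-specific step. Of the 57 members, 4 had fractional counts in all 6 libraries (got1, kynu, cth and pccb), 5 had them in some, and 18 overlap another gene in the RefSeq table. Fractional counts and overlap did not go together in all of these: got1, kynu and cth overlap no other gene there, while pccb does. With which features their reads were shared was not tested. The RefSeq table is of assembly GRCz12tu, while the build in the submitters' notes was GRCz11, with an annotation not given here. Overlaps in the annotation used for counting may thus differ. The share of all genes that overlap another gene was not counted.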

How the data were processed

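The 6 libraries (3 CTL, 3 lcat OE, grouped by title) come from poly(A) RNA, per the labels' protocols. The authors deposited a table of expected counts per gene and library, fractional in 10.8% to 11.8% of genes, with TPM and FPKM values, also deposited, which scale by transcript length and depth. The deposited signal columns hold counts divided by 1 factor per library and were not used. Per the submitters' processing notes, the build was GRCz11 and the tools included RSEM 1.3.1, HISAT, DESeq2 1.4.5 and Bowtie2 2.3.4.3, with no roles stated; the annotation is not given in the sources used here.

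Rounded expected counts went into edgeR 4.0.16 under R 4.3.3 (robust quasi-likelihood F test with TMM and filterByExpr, group only, two-sided, Benjamini-Hochberg over 14096 genes, threshold 0.05), after a test on simulated data. There 64, 63 and 59 of 13756 genes were changed 1.5-, 2- and 4-fold, and 15.6%, 58.7% and 94.9% of these were recovered. Of 110 calls in that test, 7 were false. A gene that was not called is therefore not shown to be unchanged. The simulation changed a far smaller part of the genes than the 32.6% called here, and gave genes of similar abundance the same spread. Its rates may thus not carry over to this comparison. The standard error is the absolute log2 fold change over the square root of F. TPM was tested with limma 3.58.1 on log2(TPM + 1), where the fold of low genes is understated. Other alternatives were RLE factors, library totals, DESeq2 1.42.0, FPKM, other filters, effective length offsets, a replicate block and leaving out libraries. CPM uses TMM-scaled library sizes. Replicates of a group differed by more than counting noise (chi-square of 10.5 to 33.2 per degree of freedom). The total count, 23336591 to 24890856 per library, makes counting error small except for genes of a few counts. RefSeq (assembly GRCz12tu) gave names and gene overlaps only.

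All called members were named, then uncalled ones of at least 100 TPM in either group mean and all paralogs, and up to 3 further pathway genes per list and direction with the smallest p and at least 1 CPM in the higher group; 1 such gene is not reported here. Members and lists were chosen with earlier results of these data known.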

Additional observations from a re-analysis of the deposited data

How the results depend on the processing

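Of 1615 values under the alternatives, over the 55 tested members and the 26 further genes described, 1347 kept direction and side of the threshold, 109 passed it newly, 113 lost it and 46 changed sign, in 14 members, of which 0 were called. The 6 members higher became 3 with library totals, 1 on log2(TPM + 1), 1 on log2(TPM + 0.1), 3 on FPKM, 3 with the replicate block and 0 at a fold of at least 2; the 7 lower became 18, 26, 26 and 17 for the first 4, 12 with DESeq2, 18 with 2 against 2 libraries and 2 at a fold of at least 2. Beside these, the shares of all genes called higher and lower were 11.9% and 18.7% with library totals, 9.53% and 21.5% on log2(TPM + 1), 9.7% and 21.8% on log2(TPM + 0.1), 11.8% and 17.6% on FPKM, 15.6% and 15.5% with DESeq2, 14.5% and 15.3% with the replicate block and 14.9% and 14.6% with 2 against 2 libraries. Leaving out 1 library gave 1 to 9 higher and 5 to 18 lower. Over all genes, 2293 higher became 1335 with at least 5 CPM, 1344 and 1367 on log2(TPM + 1) and log2(TPM + 0.1) and 1075 at a fold of at least 2; 2303 lower became 1369 with at least 5 CPM and 1264 at that fold. Further pathway genes higher were 14 and 16 on the TPM scales and 4 at that fold (lower 3), and 20 to 30 higher and 10 to 19 lower when 1 library was left out. The members' median of -0.09 was -0.28 and -0.31 on the TPM scales (all genes -0.09 and -0.18) and -0.16 to -0.02 when 1 library was left out. The TPM and FPKM alternatives also change the test to limma. The cause was not tested. Fewer genes, 6580, were tested at 5 CPM, and 20.3% of them were called higher and 20.8% lower. At that filter 7 members were higher and 8 lower. Fewer samples were used when libraries were left out. Signs changed on both TPM scales for got2b (-0.05 and -0.05), ftcd (-0.08 and -0.08), ass1 (-0.03 and -0.04; -0.05 with 2 against 2 libraries), dbt (-0.07 and -0.07), bckdhb (-0.11 and -0.11; library totals -0.02, FPKM -0.01), aldh4a1 (-0.17 and -0.18; library totals -0.08, FPKM -0.08, 5 CPM -0.0) and pcca (-0.17 and -0.18; library totals -0.08, FPKM -0.08, 5 CPM -0.01, length offsets -0.0). They also changed with RLE, without a filter and with DESeq2 for gnmt (0.01 each) and glula (0.0 each). The ranges of members whose sign changed when 1 library was left out were -0.28 to 0.0 for agxta, -0.07 to 0.07 for glud1a, -0.22 to 0.36 for glula, -0.38 to 0.03 for glulb, -0.43 to 0.05 for oat, -0.06 to 0.13 for aldh4a1, -0.11 to 0.03 for shmt2, -0.11 to 0.1 for gnmt and -0.04 to 0.06 for pcca. Whether samples with the same number shared a clutch or sort is not stated. Same-numbered deviations from the group means correlated at -0.05, -0.03 and 0.02, and not every sample correlated best with its own number. Such low correlations cannot show that nothing was shared. The replicate block gave 2040 and 2152 genes higher and lower, 3 and 9 members and 25 and 13 further genes. Genes under 1 TPM such as cps1, otc, asl and arg1 are limited by their counts.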
